A study of Mus musculus with 4 samples.

Results

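H3K36me3 was profiled by ChIP-seq in mouse spermatocytes at 14 days post-partum (dpp), and the deposited peak lists were read here at divergent gene pairs, which are neighbouring genes that start close together and are transcribed away from each other. Members were taken from the GENCODE annotation of the mm9 genome as pairs of autosomal protein-coding genes with the minus-strand gene on the left, the plus-strand gene on the right, no overlap, no other protein-coding gene over the bases between them and 5′ ends at most 1000 bp apart. The rule used no measured value. It gave 751 pairs, which hold 1502 of 21418 autosomal protein-coding genes, or 7.01%. No gene was in more than 1 of these pairs. The median distance between 5′ ends was 141 bp, with quartiles of 72.5 and 271 bp and a range of 1 to 987 bp. The distance was at most 100 bp in 277 pairs, over 100 and at most 300 bp in 315 pairs, and over 300 bp in 159 pairs.

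Both groups were germ cell preparations labelled as spermatocytes. The B6 group was C57BL/6J. The KI group was B6.Cg-Prdm9<tm1.1Kpgn>/Kpgn, a knock-in on the B6 background in which the last exon of Prdm9, with the zinc fingers that choose where PRDM9 binds DNA, comes from the CAST/EiJ strain. For each strain there is a list of wide enriched regions, called broad regions here, and a list of the narrow peaks refined within them, both called on 2 merged biological replicates against an input labelled 15 dpp. The lists hold positions only, with no counts or depth, so there is no replicate error and no difference between the strains was tested. Intervals below are 95% intervals over pairs or genes (Wilson for shares, order statistics for medians) and do not cover the variation between animals. Germ cell markers lay in broad regions in both strains, with 8 of 8 marked over 85.2% to 100% of their length in B6 and 77.4% to 100% in KI. The Leydig cell markers Cyp17a1, Hsd3b1 and Insl3 and the blood marker Hbb-b1 had no region in either strain. The Leydig cell marker Star and the blood marker Cd68 were covered over 100% of their length in both. The blood marker Ptprc was covered over 2.22% of its length in B6 and 2.67% in KI. Sertoli cell markers were covered in B6 over 45.2% (Sox9), 71.7% (Wt1), 42.0% (Amh) and 19.6% (Gata4) of their length, and in KI over 0%, 8.49%, 0.333% and 8.25%.

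As background, H3K36me3 is laid down along the bodies of transcribed genes by SETD2, which travels with elongating RNA polymerase II, so the mark is usually low at a promoter and rises downstream of it. A divergent pair shares 1 promoter region between 2 genes. Such promoters are often rich in CpG dinucleotides, usually lack a TATA box, and serve many housekeeping, DNA repair and mitochondrial genes. In spermatocytes PRDM9 adds H3K36me3, together with H3K4me3, at recombination hotspots, which appear as narrow peaks.

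The bases between the 5′ ends of 6 pairs are shown from the mm9 genome, on its plus strand from the minus-strand gene to the plus-strand gene, with each CpG in capitals. The stretch lies outside both genes and upstream of both starts. The first 3 pairs are well-known head-to-head pairs with an uncovered promoter in both strains, the next 2 are pairs whose midpoint lay in a broad region in both strains, and the last, Sharpin/Maf1, is the pair with a refined peak over this stretch in KI.
Brca1/Nbr1, chr11:101413270-101413462: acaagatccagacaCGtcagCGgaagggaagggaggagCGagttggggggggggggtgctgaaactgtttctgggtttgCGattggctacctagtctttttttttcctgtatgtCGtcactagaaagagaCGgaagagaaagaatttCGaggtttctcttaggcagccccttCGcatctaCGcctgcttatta
Wrap53/Trp53, chr11:69393758-69393860: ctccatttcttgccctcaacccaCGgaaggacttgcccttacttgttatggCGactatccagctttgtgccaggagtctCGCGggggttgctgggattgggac
Mrps12/Sars2, chr7:29526840-29527009: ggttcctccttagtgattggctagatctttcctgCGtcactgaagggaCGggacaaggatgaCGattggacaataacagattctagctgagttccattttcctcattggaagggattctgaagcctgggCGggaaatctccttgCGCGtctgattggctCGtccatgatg
Zwilch/Rpl4, chr9:64020912-64021193: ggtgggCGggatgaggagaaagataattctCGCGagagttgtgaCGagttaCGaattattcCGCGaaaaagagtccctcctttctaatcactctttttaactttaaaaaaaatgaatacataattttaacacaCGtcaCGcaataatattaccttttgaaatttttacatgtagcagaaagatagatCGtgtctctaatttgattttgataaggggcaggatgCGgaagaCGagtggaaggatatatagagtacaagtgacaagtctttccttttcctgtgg
Phf7/Bap1, chr14:32064405-32064674: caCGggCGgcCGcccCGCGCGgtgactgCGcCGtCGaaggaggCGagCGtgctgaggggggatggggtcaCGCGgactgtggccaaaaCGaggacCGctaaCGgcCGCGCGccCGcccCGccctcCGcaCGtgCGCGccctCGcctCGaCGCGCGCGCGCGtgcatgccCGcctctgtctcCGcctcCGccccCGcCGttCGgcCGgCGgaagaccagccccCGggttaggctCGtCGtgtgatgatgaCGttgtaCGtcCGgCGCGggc
Sharpin/Maf1, chr15:76181542-76181723: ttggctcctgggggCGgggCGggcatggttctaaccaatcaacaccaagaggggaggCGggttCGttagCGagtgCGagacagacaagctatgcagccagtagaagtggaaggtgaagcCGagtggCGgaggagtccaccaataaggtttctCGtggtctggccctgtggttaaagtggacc
The stretches differed widely in base composition. The Phf7/Bap1 stretch held 49 CpG in 270 bases and was 75.9% GC, whereas the Zwilch/Rpl4 stretch held 12 CpG in 282 bases and was 37.6% GC. The Brca1/Nbr1 stretch held 9 CpG in 193 bases, Wrap53/Trp53 held 4 in 103 and Mrps12/Sars2 held 7 in 170. The letters CCAAT, on either strand, were in 4 of the 6 stretches and in neither of the 2 stretches bridged in both strains.

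A sharp gap in the broad regions was the usual state of a divergent pair. A pair was called 2-sided where its midpoint was uncovered and the nearest region on each side overlapped the gene on that side by at least 1 bp. In B6, 583 pairs were 2-sided (77.6%, interval 74.5% to 80.5%), 96 were 1-sided, 41 had neither gene marked next to the gap, and in 31 the midpoint lay in a region, which is called bridged here (4.13%, interval 2.92% to 5.80%). In KI, 589 pairs were 2-sided (78.4%, interval 75.3% to 81.2%), 99 were 1-sided, 34 were unmarked and 29 were bridged (3.86%, interval 2.70% to 5.49%). Coverage fell on both sides within a short distance of the midpoint. In B6 the share of pairs covered was 78.0% at 4000 bp on the minus-strand side, 46.1% at 1000 bp, 18.6% at 500 bp and 4.13% at the midpoint, and on the plus-strand side it was 17.3% at 500 bp, 45.5% at 1000 bp and 76.3% at 4000 bp. In KI the share at 1000 bp was 44.6% on the minus-strand side and 42.9% on the plus-strand side.

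**Figure D1:**
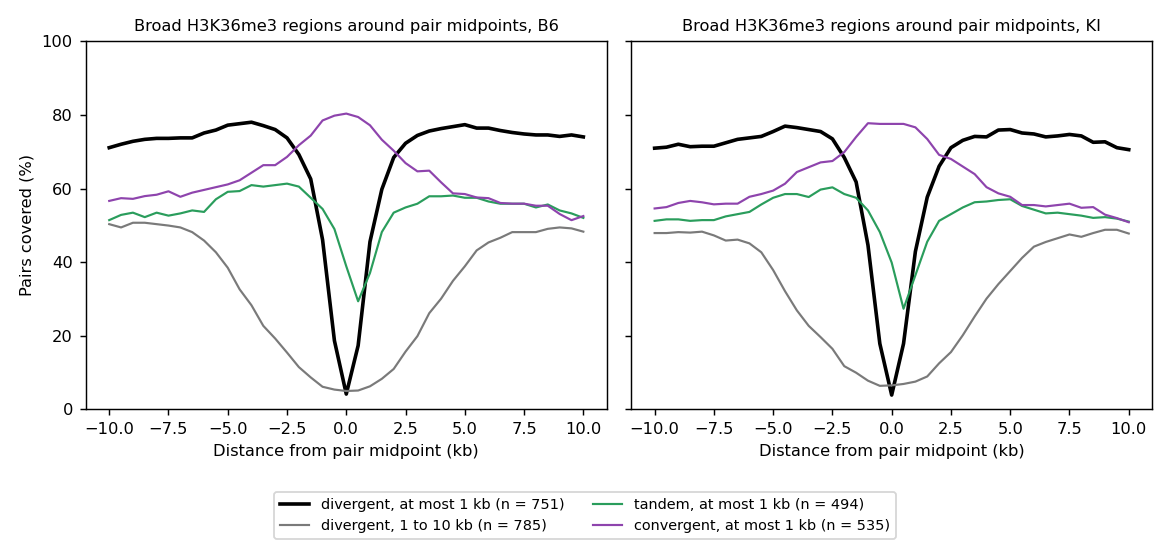
The share of pairs (%) covered by a broad H3K36me3 region is plotted against the distance from the pair midpoint (kb, steps of 500 bp, in genome order, or along transcription for tandem pairs) in B6 and KI, for the 751 divergent pairs and for 785 wider divergent, 494 tandem and 535 convergent pairs. The black line falls to 4.13% in B6 and 3.86% in KI at the midpoint, where convergent pairs stand at 80.4% and 77.6%.

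The orientation of the neighbours went with the state of the midpoint. Convergent neighbours, which meet with their 3′ ends at most 1000 bp apart, were bridged in 430 of 535 pairs in B6 (80.4%) and 415 in KI (77.6%). Tandem neighbours, which lie on 1 strand and put a 3′ end next to a 5′ end, were bridged in 192 of 494 pairs in B6 (38.9%) and 197 in KI (39.9%). Divergent neighbours with 5′ ends over 1000 and up to 10000 bp apart were bridged in 39 of 785 pairs in B6 (4.97%) and 51 in KI (6.50%). Among pairs in which both genes held a region, the bridged share was 5.05% of 614 divergent pairs, 7.83% of 383 wider divergent pairs, 59.8% of 311 tandem pairs and 97.5% of 437 convergent pairs in B6, and 4.69% of 618, 10.5% of 399, 62.4% of 306 and 94.7% of 434 in KI. A gene held a region if any base of it was covered, so a region over the midpoint can itself place a pair in this set. These shares are thus partly fixed by the filter, which the shares over all pairs above are not. The intervals of these filtered shares have the same limit, so whether they overlap is given as a description only. Those of the divergent pairs (3.58% to 7.08% in B6, 3.29% to 6.66% in KI) did not overlap those of tandem or convergent pairs in either strain. The intervals of the divergent pairs overlapped that of wider divergent pairs in B6 (5.54% to 11.0%) and not in KI (7.88% to 13.9%). Genes are shared between the sets, since 115 convergent and 50 tandem pairs hold a gene of a divergent pair.

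Taken gene by gene, the members were marked more often than other genes but their starts were not covered more often. A broad region lay on 1324 of 1502 member genes in B6 (88.1%) and 1335 in KI (88.9%), where the background over all 21418 genes was 60.7% in B6 and 62.5% in KI. The 5′ end itself lay in a region in 68 member genes in B6 (4.53%) and 61 in KI (4.06%), beside a background of 5.92% and 6.2%. Among marked genes it was 5.14% of 1324 members against 9.76% of 13001 genes in B6, and 4.57% of 1335 against 9.92% of 13380 in KI. A refined peak midpoint lay in 1136 member genes in B6 (75.6%) and 1165 in KI (77.6%), beside 51.5% and 54% of all genes. Among marked genes with an uncovered start, the region began a median of 916.5 bp from the 5′ end in members (interval 873 to 971 bp, n = 1256) and 1668 bp in all genes (interval 1618 to 1712 bp, n = 11732) in B6. The same distances were 970.5 bp (interval 921 to 1027 bp) and 1898 bp (interval 1842 to 1963 bp) in KI. Marked members were covered over a median of 93.2% of their length in B6 and 91.8% in KI, against 86.1% and 80.7% of marked genes as a whole. Member genes were also a little longer, with a median length of 18336 bp (interval 16949 to 19488 bp) against 15535 bp (interval 15146 to 15907 bp).

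The gap was narrow and its width fell in steps, because every broad region starts on a grid of 500 bp. Its median width was 2000 bp in both strains (interval 2000 to 2500 bp), with quartiles of 1500 and 3500 bp in B6 and 1500 and 4000 bp in KI. The most frequent width was 1500 bp, found in 120 gaps in B6 and 117 in KI. Gaps of at most 5000 bp made up 83.2% of 583 in B6 and 80.8% of 589 in KI. A long tail reached 291500 bp in B6 and 419000 bp in KI. In wider divergent pairs the median gap was 9000 bp in B6 and 9500 bp in KI. Within the members the gap hardly followed the distance between the 5′ ends. Its median was 2000 bp for distances of at most 100 bp and again for 100 to 300 bp, and 2500 bp (B6) or 3000 bp (KI) for 300 to 1000 bp. Spearman's rho between distance and width across pairs was 0.195 in B6 (n = 583) and 0.186 in KI (n = 589), as a description of pairs that share the same libraries.

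**Figure D2:**
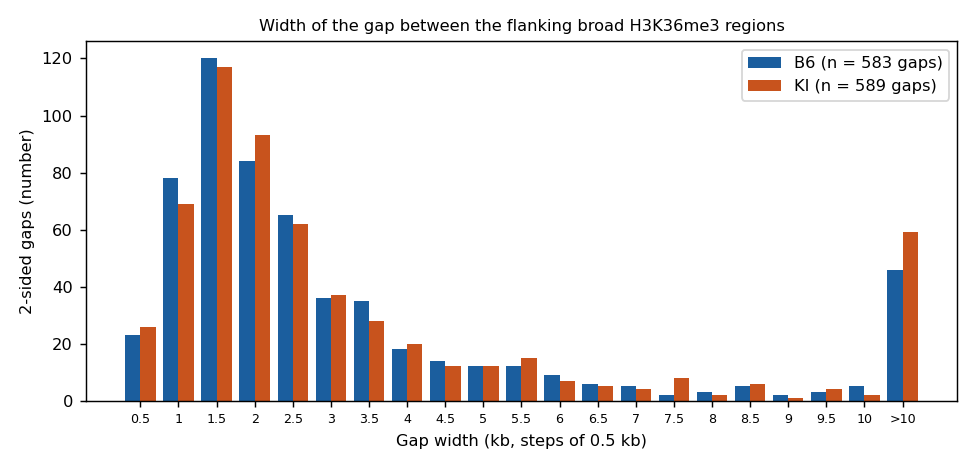
The number of 2-sided gaps is plotted against gap width (kb, steps of 0.5 kb, with all gaps over 10 kb in the last bar) for B6 (blue, 583 gaps) and KI (orange, 589 gaps). Both strains have their highest bar at 1.5 kb, with 120 gaps in B6 and 117 in KI.

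The median gap centre lay close to the pair midpoint, but this median cannot show that single gaps were centred. Which gene of a pair lies on the plus strand is arbitrary, so offsets to both sides cancel. A 2-sided gap also holds the midpoint by definition. The median offset of the gap centre from the pair midpoint was 0 bp in B6 (interval −51.5 to 35 bp) and 21 bp towards the plus-strand gene in KI (interval −34 to 69 bp). The centre lay at most 500 bp from the midpoint in 371 of 583 gaps in B6 (63.6%) and 371 of 589 in KI (63.0%). The region began a median of 848 bp into the minus-strand gene and 878 bp into the plus-strand gene in B6, and 917 and 947 bp in KI, with overlapping intervals in each strain. The likeness of these medians has the same limit. Single pairs were less even than these medians. The nearer edge lay 582 bp and the farther 1307 bp from its 5′ end in B6, and 597 and 1348 bp in KI. Across pairs the distances on both sides were weakly related, with Spearman's rho of 0.146 in B6 and 0.217 in KI. A 5′ end lay inside a flanking region in 17 of the 2-sided gaps in B6 and 14 in KI.

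The edge of the mark usually lay past the first exon. Where a protein-coding transcript started at the gene's 5′ end, the edge fell in the first intron on 795 of 1077 sides in B6 (73.8%) and 799 of 1086 in KI (73.6%), in the first exon on 78 sides in each strain (7.24% and 7.18%), and beyond the first intron on 172 (16.0%) and 174 (16.0%) sides. The first exons had a median length of 187.5 bp in B6 and 186 bp in KI, below the 500 bp grid of the broad regions. Many thus hold no grid position, so the low share of edges in first exons follows in part from the grid. The edge lay a median of 645 bp beyond the end of the first exon in B6 (interval 597 to 706 bp) and 704 bp in KI (interval 635 to 776 bp).

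Pairs that were not 2-sided were mostly pairs with a short gene. Where the shorter gene was at most 5000 bp long, 104 of 205 pairs were 2-sided in B6 (50.7%) and 97 in KI (47.3%). Where it was over 15000 bp long, 255 of 282 pairs were 2-sided in B6 (90.4%) and 265 in KI (94.0%). In 1-sided pairs the gene without a region next to the gap was the shorter of the pair in 84 of 96 in B6 (87.5%) and 87 of 99 in KI (87.9%), with a median length of 4079 bp in B6 and 3882 bp in KI against 27077 and 24645 bp for the marked partner. The genes of unmarked pairs had a median length of 2500 bp in B6 and 1731.5 bp in KI. Broad regions are placed in steps of 500 bp, and the part of the gene's length itself in these shares was not tested.

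Well-known head-to-head pairs showed the gap one by one. Brca1 acts in repair by homologous recombination and Nbr1 is an autophagy receptor. Their gap was 1500 bp wide in B6 (chr11:101413001-101414500) and 2500 bp in KI, its centre 384.5 bp towards Nbr1 in both. Atm, a kinase of the DNA damage response, and Npat, a coactivator of histone genes, had a gap of 1500 bp at the same bases in both strains (chr9:53344001-53345500). Wrap53, which encodes a telomerase and Cajal body protein, and the tumour suppressor gene Trp53 had a gap of 2500 bp at the same bases in both strains (chr11:69392501-69395000). For Mrps12, a protein of the small mitochondrial ribosomal subunit, and Sars2, the mitochondrial seryl-tRNA synthetase, the gap was 1500 bp in both strains but lay 500 bp further towards Sars2 in KI. Gart, an enzyme of purine synthesis, and Son, a splicing cofactor, had a gap of 2500 bp in both strains, 500 bp further towards Gart in KI. The least even of these pairs was Mcm4, a subunit of the replicative helicase, with Prkdc, the catalytic subunit of DNA-dependent protein kinase. Its gap of 4500 bp in B6 reached 4042 bp into Prkdc while the region on Mcm4 passed the Mcm4 start by 7 bp, and in KI the gap was 5500 bp with the same centre.

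**Figure D3:**
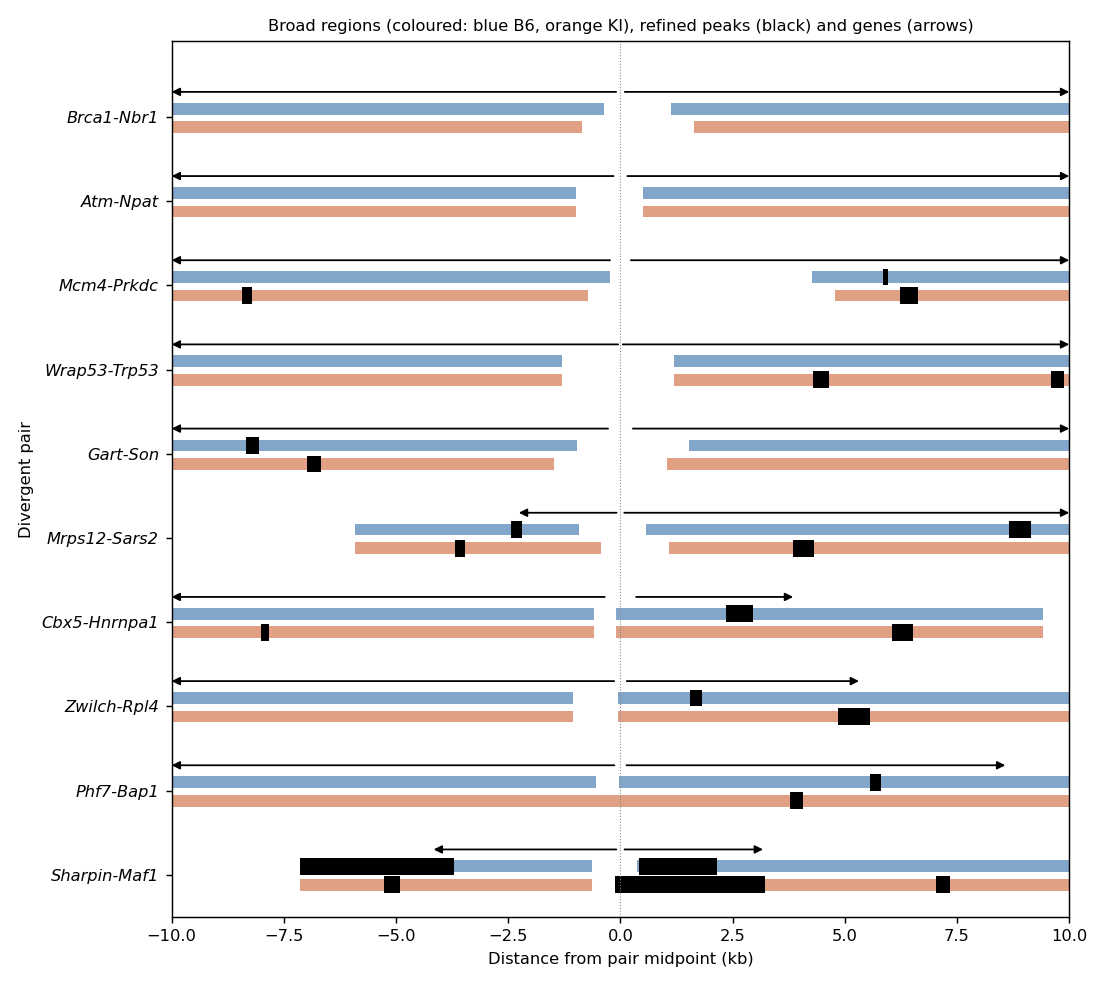
For 10 pairs, broad regions (bars, blue for B6 and orange for KI), refined peaks (black) and genes (arrows in the direction of transcription, cut at the frame) are drawn against the distance from the pair midpoint (kb). The upper 6 pairs have a gap around the midpoint in both strains, and in the lower 4 a region crosses the midpoint in at least 1 strain with an uncovered stretch beside it except at Phf7/Bap1 in KI.

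The narrowest gaps were a single grid step. Of the gaps that were 500 bp wide in both strains, the 3 taken by the naming rule were 6530403G13Rik/Ppil4, Arl16/Hgs and Banf1/Eif1ad, where Hgs encodes an endosomal sorting protein and Banf1 a chromatin-binding protein of the nuclear envelope. The 3 widest gaps by mean width over the strains, among pairs 2-sided in both, were uneven to different degrees. Ccdc148/Pkp4 had a gap of 291500 bp in B6 and 160000 bp in KI, which reached 285240 and 148240 bp into Ccdc148 but only 6094 bp into Pkp4, a plakophilin, in B6. Fbxl13/Armc10 had 162000 bp in B6 and 72000 bp in KI, nearly all of it over Fbxl13, which encodes an F-box protein. Col4a4/Col4a3, which encode chains of basement membrane collagen, had 85000 bp in B6 and 108500 bp in KI. Most of this lay over Col4a3, where the first region came after 67505 of 135139 bp in B6, against 17424 of 136127 bp in Col4a4. In KI these distances were 99505 bp in Col4a3 and 8924 bp in Col4a4. A wider gap of 419000 bp was found in KI at Cdh8/A330008L17Rik, with a cadherin gene, a pair that was 1-sided in B6.

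Most bridged pairs had an uncovered stretch close to the midpoint. Of the 31 bridged pairs in B6, the region over the midpoint covered both 5′ ends in 20, and it ran at least 1000 bp to both sides of the midpoint in 10. In the other 21 it ended within 1000 bp on 1 side, next to an uncovered stretch with a median width of 1000 bp and a range of 500 to 17500 bp. In KI the corresponding counts were 18, 8 and 21 of 29, with a median uncovered stretch of 1000 bp. Cbx5, which encodes a heterochromatin protein, and Hnrnpa1, an RNA-binding protein, start 698 bp apart. Their midpoint was covered in both strains by a region on Hnrnpa1 that began 95 bp before the midpoint, beside 500 uncovered bp on the Cbx5 side. Zwilch, a kinetochore gene, and Rpl4, a ribosomal protein gene, start 283 bp apart, and the region on Rpl4 began 51.5 bp before the midpoint, beside 1000 uncovered bp in both strains. For Phf7, a testis gene for a PHD finger protein, and Bap1, a deubiquitinase, 500 bp remained uncovered on the Phf7 side in B6, whereas in KI the region ran 17038.5 bp towards Phf7 and 16960.5 bp towards Bap1. In both strains the region ran at least 1000 bp to each side in 5 of the 17 pairs bridged in both. The bridged share depended on how close regions were joined. With regions up to 1000 bp apart joined, it rose to 17.6% in B6 and 16.5% in KI, and with both genes at least 5 kb long it was 2.01% in KI.

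In most pairs that were 2-sided in both strains, both edges lay within a single grid step of each other. The state of the pair was the same in 686 of 751 pairs (91.3%). Since 77.6% of pairs in B6 and 78.4% in KI were 2-sided, much of this agreement would arise without any tie between the strains. Of the pairs bridged in a single strain, all 14 of B6 and all 12 of KI were 2-sided in the other. Among 559 pairs that were 2-sided in both, both edges lay at the same base in 173 (30.9%, interval 27.3% to 34.9%) and at most 500 bp apart, a single grid step, in 395 (70.7%, interval 66.8% to 74.3%). The corresponding share within 500 bp was 56.6% of 311 wider divergent pairs (interval 51.0% to 62.0%) and 64.0% of 89 tandem pairs (interval 53.7% to 73.2%). The interval of tandem pairs overlapped that of the members, and that of wider divergent pairs did not. The gap was wider in KI in 218 pairs (39.0%), wider in B6 in 145 (25.9%) and equal in 196 (35.1%), and the median difference was 0 bp with quartiles of −500 and 500 bp. Spearman's rho of the width between strains was 0.858 across the 559 pairs. The lists differ in length, with 54458 broad regions in B6 and 66566 in KI, and the Sertoli cell markers differ as given above. The study's methods also give more aligned reads for KI than for B6. The part of these in the differences between strains was not tested. The 3 pairs with the largest difference were Ccdc148/Pkp4 and Fbxl13/Armc10, described above, and Tctn3/Entpd1. The last, a ciliary gene and an ectonucleotidase gene, had a gap of 99500 bp in B6 and 2000 bp in KI, and the whole difference lay on the Entpd1 side, since the edge on Tctn3 was 723 bp from its start in both strains.

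**Figure D4:**
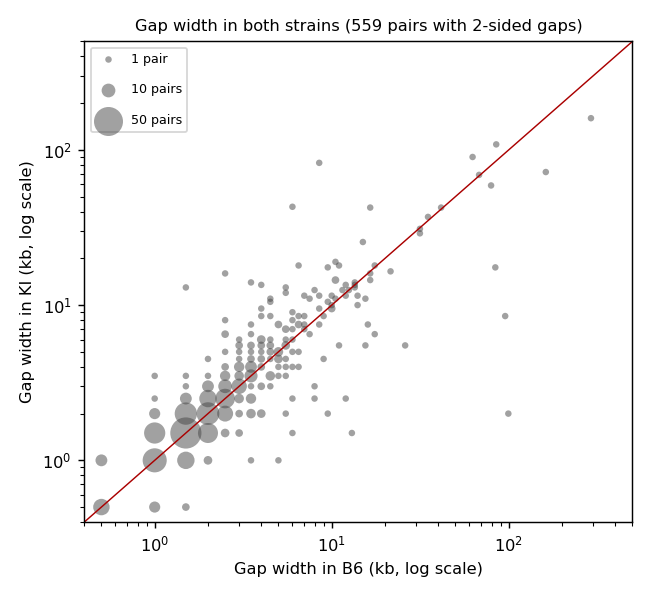
Gap width in KI is plotted against gap width in B6 (kb, both axes on a log scale) for the 559 pairs with a 2-sided gap in both strains, with the area of a point growing with the number of pairs at that place and a line where both widths are equal. Of these, 196 pairs lie on the line, 218 above it and 145 below it.

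Every refined peak on the autosomes, 54236 in B6 and 68189 in KI, lay inside a broad region of its strain, so none can lie in a gap. The values below thus restate in part where broad regions lie, and are no separate evidence of the gap. Only 1 of 751 pairs in each strain had a refined peak over any base between the 5′ ends (0.133%, interval 0.0235% to 0.750%). In B6 and KI the share was 5.35% and 8.03% of wider divergent pairs, 2.02% and 3.85% of tandem pairs and 9.35% and 10.7% of convergent pairs. Those sets differ in the length of the stretches between genes and in how often a broad region covers them. In KI the member pair with such a peak was Sharpin, a component of a ubiquitin ligase complex, with Maf1, a repressor of RNA polymerase III. There a peak of 3358 bp (chr15:76181502-76184859) began inside Sharpin and ran across Maf1, in a pair bridged in KI with a gap of 1000 bp in B6. Within 1 kb of the pair midpoint there was 1 refined midpoint in B6 and there were 3 in KI, or 0.0666 and 0.20 per kb and 100 pairs. From 4 to 10 kb on either side there were 673 and 789, or 7.47 and 8.75 per kb and 100 pairs. No refined midpoint lay between the 5′ ends in either strain.

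**Figure D5:**
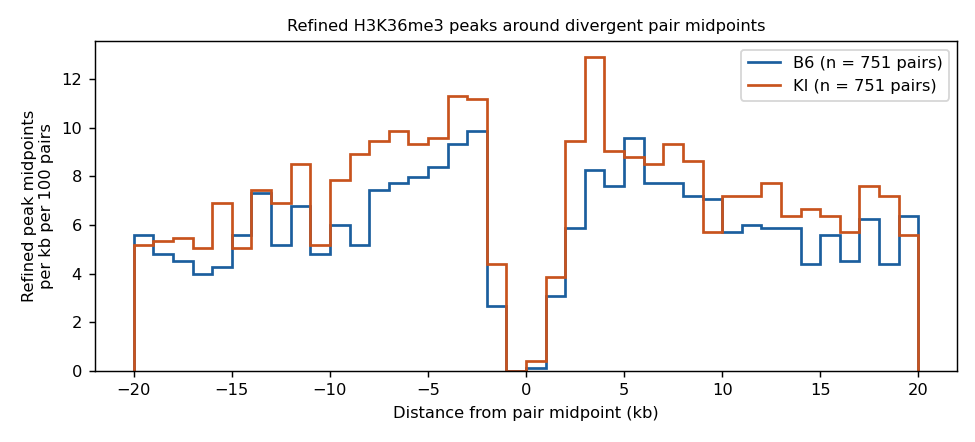
The number of refined H3K36me3 peak midpoints per kb and 100 pairs is plotted in bins of 1 kb against the distance from the pair midpoint (kb) for B6 (blue) and KI (orange), 751 pairs each. The 1-kb bins on both sides of the midpoint hold 0 and 1 midpoints in B6 and 0 and 3 in KI, against 74 in the bin from 2 to 3 kb on the minus-strand side in B6 and 97 in the bin from 3 to 4 kb on the plus-strand side in KI.

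Inside the genes, a refined peak can start no earlier than the broad region that holds it. The distance from the 5′ end to the first refined midpoint had a median of 7681.75 bp in B6 (interval 7155 to 8190.5 bp, n = 1136) and 6379 bp in KI (interval 5931.5 to 6746 bp, n = 1165). In all genes it was 8699 bp (interval 8483 to 8874.5 bp) and 7391.5 bp (interval 7193.5 to 7607 bp). The medians were close on both strands, with 7644 bp in minus-strand and 7756 bp in plus-strand genes in B6, and 6273.75 and 6399.5 bp in KI. The lists hold 58502 refined peaks in B6 and 72692 in KI, and the part of this difference and of the read totals in the shorter distance in KI was not tested. Both genes of the pair held a refined midpoint in 451 pairs in B6 (60.1%) and 469 in KI (62.5%). The first refined midpoints were seldom at the same place, being at most 500 bp apart between strains in 233 of 1063 genes with one in each strain (21.9%, interval 19.5% to 24.5%). Refined peaks do not lie on the 500 bp grid and are counted here per gene, so this share cannot be set against that of the gap edges.

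The gene lists differed in how many of their genes sit in divergent pairs, which is a property of the genome and not of the mark. Of 151 genes for DNA repair and replication, 42 (27.8%) were members, in 40 pairs, against 7.01% of all genes. Of these pairs 35 were 2-sided in B6 and 37 in KI, beside 77.6% and 78.4% of all divergent pairs, with a median gap of 2000 bp in both. In each list the widest gaps are given by mean width over the strains, among pairs 2-sided in both. For repair and replication the widest was at Wrn, a RecQ helicase gene, with Purg, at 10000 bp in B6 and 9500 bp in KI. It lay almost wholly on the Wrn side, with 8999 bp of Wrn uncovered in B6 against 204 bp of Purg. It was followed by Abhd12/Gins1, at 7000 and 8500 bp, where Gins1 encodes a subunit of the replicative helicase, and by 2 pairs of equal mean width, Mcm4/Prkdc and Polk/Col4a3bp, with a translesion polymerase, the latter at 3500 bp in B6 and 6500 bp in KI. Outside this ranking, Pole3/4933430I17Rik had 8500 bp in B6 and was bridged in KI.

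Of 64 genes for meiosis and germ cells, 4 (6.25%) were members, beside the share of all genes given above. Their gaps were narrow. Stag3 and Smc1b encode meiotic cohesin subunits and Trip13 an ATPase that acts on chromosome axes. Gpc2/Stag3 and Trip13/Brd9 had gaps of 500 bp in B6 and 1000 bp in KI, Smc1b/Ribc2 had 500 bp in both, and Rad51c/Tex14, which joins a recombinase paralogue with a gene for germ cell intercellular bridges, was bridged in B6 and had 1500 bp in KI. The medians of 500 bp in B6 and 1000 bp in KI, over 3 and 4 gaps, stand beside 2000 bp over all divergent pairs.

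The counts for the next lists stand beside 77.6% 2-sided pairs in B6 and 78.4% in KI over all divergent pairs, and beside the share of all genes in pairs given above. Of 162 genes for the mitochondrial ribosome and respiratory chain, found by name prefix, 32 (19.8%) were members in as many pairs. Of these pairs 28 were 2-sided in B6 and 29 in KI, with median gaps of 1750 and 2000 bp. The widest of those 2-sided in both strains was Wdr4/Ndufv3, at 10500 and 14500 bp, while Ndufa5/Asb15 was 1-sided in B6 and had 27000 bp in KI. All 7 aminoacyl-tRNA synthetase genes among the members, of 38, were in 2-sided pairs with a median gap of 2000 bp in both strains, the widest being Lyrm4/Fars2 at 4000 bp in B6 and 6000 bp in KI. Of 86 chaperone genes 13 were members, in 12 2-sided pairs and 1 unmarked pair in both strains with a median gap of 2500 bp, and the widest gap, at Sirt1/Dnajc12, was 41500 bp in B6 and 42500 bp in KI. Of 46 proteasome genes 5 were members, and the widest of their gaps was at Psma7/Ss18l1, with 5000 bp in B6 and 4500 bp in KI. Of 365 zinc finger genes of the Zfp series 19 were members, in 17 pairs of which 15 were 2-sided in each strain, and Zfp277/Dock4 had the widest gap, at 62500 bp in B6 and 90000 bp in KI. The list of collagen and laminin genes, found by name prefix, gave 3 members of 38, namely Col4a4, Col4a3 and Col4a3bp, the last of which encodes a ceramide transfer protein and no collagen, and olfactory and vomeronasal receptor genes 0 of 1433.

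The promoters of the members were rich in CpG. In windows of 300 bp centred on the pair midpoint, the median GC content was 62.3% (interval 61.3% to 63.3%), against 58.3% (interval 58.0% to 58.7%) in windows of 300 bp centred on the 5′ end of every autosomal protein-coding gene. The ratio of observed to expected CpG had a median of 0.845 (interval 0.830 to 0.865) against 0.608 (interval 0.597 to 0.618), and it was over 0.6 in 644 of 751 pairs (85.8%) against 50.5% of genes. The gap went with this ratio. Among pairs over 0.6, 530 of 644 were 2-sided in B6 (82.3%) and 536 in KI (83.2%), with a median gap of 2000 bp in both. Among the 107 pairs at or below 0.6, 53 were 2-sided in each strain (49.5%), with a median gap of 6000 bp in B6 (interval 4000 to 9500 bp) and 5500 bp in KI (interval 4000 to 8500 bp). Unmarked pairs had the lowest median ratio, at 0.55 in B6 and 0.545 in KI, and bridged pairs had a median of 1.01 in both strains.

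Short words were counted in the same windows on either strand, as letters and not as sites. CCAAT was in 43.4% of pair windows against 35.4% of all 5′ end windows. TGCGCA, which reads the same on both strands, was in 18.6% against 9.41%, CCGGAA in 40.5% against 18.8%, AAGATGG in 10.1% against 7.39% and TATAAA in 5.06% against 10.8%. None of these words contains another, and words rich in G and C are more frequent by composition alone in the windows with more GC. The windows also differ in kind. Those of pairs are centred between the 5′ ends, and with a median distance of 141 bp they usually hold both. The comparison windows are centred on the 5′ end of each gene taken by itself. These shares thus do not compare start with start, and the part of the unlike windows in the differences was not tested. TATAAA was in 2.92% of the windows of 2-sided pairs and in 24.4% of those of unmarked pairs in B6 (17 of 583 and 10 of 41), and in 3.23% and 32.4% in KI (19 of 589 and 11 of 34). CCGGAA ran the other way, in 45.5% of the windows of 2-sided and 4.88% of those of unmarked pairs in B6, and in 45.8% and 2.94% in KI. CCAAT was in 44.6% and 56.1% in B6 and in 44.8% and 58.8% in KI, while TGCGCA and AAGATGG were less frequent in unmarked pairs. The windows of unmarked pairs were also poorer in GC, with a median of 50.7% in B6 and 49.5% in KI against 62.7% in 2-sided pairs of each strain. The part of this composition in the shares was not tested, and the unmarked sets are small.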

How the data were processed

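Uniquely placed reads were mapped by the authors to mm9 (BWA 1.2.3, per the labels), and ZINBA was run by them on 2 merged biological replicates per strain with the input as control. The deposited lists hold 3 columns (chromosome, start and end of each region), with no counts or scores, so the unit of the values is a position on the genome. The antibody field of the labels reads H3K36me6, while the titles and the methods give H3K36me3. Broad regions of a strain that overlapped or touched were joined, and positions were read as counted from 1. Genes came from GENCODE on the same build, and sequences from the mm9 genome. Members and lists were chosen with earlier results of these data known.

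Gaps, shares and medians were computed with Python 3.11.15, numpy 2.4.6, pandas 2.3.3 and scipy 1.17.1, and drawn with matplotlib 3.10.9. The code was tested on simulated data, where class and width were as planted in 500 of 500 pairs. Pairs named were 6 textbook pairs, the 3 widest and narrowest gaps by mean width over the strains, the 3 bridged in both strains with the most distant starts, the 3 with the largest strain difference, those with a refined peak between the starts (the pair of B6 is not reported here), and up to 4 per gene list with the widest gaps. Alternatives were a distance of 500 bp, neighbours by consecutive starts, starts of protein-coding transcripts, broad regions of at least 3000 bp, joining regions up to 1000 bp apart, genes of at least 5 kb, other tolerances between strains, and peak midpoints in place of overlap. Input samples have no list and were not used here.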

Additional observations from a re-analysis of the deposited data

How the results depend on the processing

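Of 78 values recomputed under alternatives, 62 stayed within the 95% interval of the reported value or, for the number of pairs, within 1.5 times it. The median width and offset of the gap did so under every alternative run on them. With broad regions of at least 3000 bp the 2-sided share was 74.4% in B6 and 75.2% in KI. With regions up to 1000 bp apart joined, which closes gaps of 500 and 1000 bp by construction, it was 64.2% and 65.8%, the bridged share was 17.6% and 16.5%, and edges at most 500 bp apart between strains made up 64.9%. With both genes at least 5 kb long the 2-sided share was 87.6% (B6) and 89.9% (KI). In KI that limit also gave a bridged share of 2.01%, a share of 0% with a refined peak between the 5′ ends and a distance to the first refined peak of 6838 bp. Edges at the same base made up 30.9% and edges at most 1000 bp apart 80.9%. With the midpoint of a refined peak in place of any overlap, the share between the 5′ ends was 0% in both strains. No paired analysis was possible because each strain has 1 pooled list, and for the same reason no replicate could be left out. The lists hold no depth, so an uncovered base says only that no region was called there, and edges are no finer than 500 bp.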

Other observations

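On the X chromosome, which the rule left out, 18 divergent pairs met the same distance. Of these, 15 had a 2-sided gap in B6 and 14 in KI, none was bridged in either strain, and the median gap was 5500 bp in B6 (range 2000 to 268500 bp) and 4000 bp in KI (range 1500 to 496000 bp).

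Pairs that hold a gene for a cytosolic ribosomal protein named Rpl or Rps with a number were often bridged, and this group was chosen after the values were seen. Of 8 such pairs, 6 were bridged in both strains, namely Rnf151/Rps2, Rps28/Ndufa7, Med22/Rpl7a, Rpl9/Lias, Trappc4/Rps25 and Zwilch/Rpl4. The region ran at least 1000 bp to both sides of the midpoint in both strains only at Rnf151/Rps2 and Rps28/Ndufa7. At Rpl9/Lias, Trappc4/Rps25 and Zwilch/Rpl4 it ended 291, 213 and 51.5 bp from the midpoint in both strains, beside 500, 500 and 1000 uncovered bp. At Med22/Rpl7a it ended 239.5 bp from the midpoint in KI, beside 500 uncovered bp. Rps27/Rab13 had a gap of 2000 bp in B6 and was bridged in KI, and Iqcg/Rpl35a had a gap of 3000 bp in both. Fau, which encodes a ribosomal protein under another name, falls outside the group, and Mrpl49/Fau had a gap of 500 bp in B6 and was bridged in KI. Among the 743 pairs without a gene so named, 25 (3.36%) were bridged in B6 and 22 (2.96%) in KI.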
